A study of Mus musculus with 7 samples.

Results

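The genes described here are those of the amino acid stress response run by the transcription factor ATF4, with the serine and one-carbon enzymes and the aminoacyl-tRNA synthetases that it can induce. They were taken from a list of 33 genes by symbol, a synthetase also under its symbol with a final 1, and each was read from its brightest probe set, by the mean of all 7 arrays. Of the 33, 31 had a probe set annotated to them alone, out of 12393 genes measured in this way. Pycr1 and Mars were not analysed here. The study used MN9D, a mouse hybrid line between midbrain neurons of the embryo and a neuroblastoma, which makes dopamine. The labels give 4 arrays of MN9D cells that overexpress both hemoglobin chains, alpha and beta, and 3 arrays of MN9D cells that carry an empty vector, all in the same parental line. The stated question is what globin expression does to such cells. Neither the promoter of the vector nor whether a population was grown from 1 clone is stated in the labels. Whether the replicates were separate cultures is not in the labels, and the p-values then rest on a spread between arrays that may be technical alone.

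ATF4 is made when the translation initiation factor eIF2 is phosphorylated by one of its kinases, which sense amino acid shortage, unfolded protein in the endoplasmic reticulum, viral RNA or lack of heme. Its protein level is set largely by translation of its mRNA. ATF4 pairs with C/EBP proteins at a composite DNA element and raises genes that make, import and load amino acids. Its targets also include CHOP, encoded by Ddit3, and brakes on the response such as Trib3 and Ppp1r15a.

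The composite element was searched in the promoters of the listed genes, because it is the sequence by which ATF4 and C/EBP proteins are known to act on this program. Its core was written as TGATGNAA, read on both strands, in windows from 250 bases before to 50 bases after the start site in RefSeq's table of GRCm38.p6. It was the only motif searched, so no overlap with another motif arises. A match describes letters and not a bound site, and an element outside the window was not looked for. Of the 33 genes 28 had a window, and 10 of these 28 (35.7%) held the core, against 4.51% of the 27025 genes of the table and 3.13% of the 9887 measured genes with a window. The stretches around the matches of 8 measured genes are given below, each 30 bases read along the strand that carries the core, with the core in capitals.
Asns: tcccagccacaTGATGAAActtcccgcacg
Atf3: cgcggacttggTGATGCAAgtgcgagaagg
Trib3: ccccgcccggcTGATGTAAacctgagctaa
Chac1: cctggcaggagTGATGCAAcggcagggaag
Gars: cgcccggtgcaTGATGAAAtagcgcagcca
Iars: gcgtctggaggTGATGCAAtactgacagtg
Tars: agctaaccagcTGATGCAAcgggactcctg
Yars: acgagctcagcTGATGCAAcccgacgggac
On GRCm38.p6 these stretches lie at chr6:7693214-7693243 (minus strand) for Asns, chr1:191183425-191183454 (plus) for Atf3, chr2:152344028-152344057 (plus) for Trib3 and chr2:119351038-119351067 (minus) for Chac1. Those of the synthetases lie at chr6:55037960-55037989 (minus) for Gars, chr13:49682126-49682155 (minus) for Iars, chr15:11399655-11399684 (plus) for Tars and chr4:129189895-129189924 (plus) for Yars. The first base of the core, counted along the gene from the start site as base 1, was at -23 in Asns, -110 in Atf3, 15 in Trib3 and -193 in Chac1. In the synthetases it was at -30 in Gars, 8 in Iars, -15 in Tars and 4 in Yars. Negative positions lie upstream of the start site, and positions from 4 to 15 lie just inside the transcribed part. The whole windows of Asns (chr6:7693160-7693459, minus strand) and Trib3 (chr2:152344011-152344310, minus strand) show the element in a gene whose signal did not pass the test and in one whose signal rose. Both are read along the gene, with the match in capitals, which in Trib3 is the core on the opposite strand.
Asns: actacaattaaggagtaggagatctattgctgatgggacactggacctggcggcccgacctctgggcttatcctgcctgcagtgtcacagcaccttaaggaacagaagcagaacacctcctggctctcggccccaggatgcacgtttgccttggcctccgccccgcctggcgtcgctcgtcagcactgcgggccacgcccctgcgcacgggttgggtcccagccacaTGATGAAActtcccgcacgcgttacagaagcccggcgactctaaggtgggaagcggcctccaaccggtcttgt
Trib3: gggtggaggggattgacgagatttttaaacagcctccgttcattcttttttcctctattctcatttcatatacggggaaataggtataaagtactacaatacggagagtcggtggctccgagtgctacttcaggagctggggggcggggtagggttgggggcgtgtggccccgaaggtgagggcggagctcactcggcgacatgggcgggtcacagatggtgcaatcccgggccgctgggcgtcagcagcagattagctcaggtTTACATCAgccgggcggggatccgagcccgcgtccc

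The values are log2 expression values made by RMA, and differences are globin-labelled minus empty vector. Standard errors of limma follow the sign ±, unless an SD is named, and a gene was said to rise or fall at a limma adjusted p under 0.05 over all 22626 probe sets tested. Of 5 adult alpha-globin probe sets 3 rose, by 35.8-fold to 142-fold. Of the 3 adult beta-globin probe sets 1 rose, by only 1.26-fold (limma adjusted p = 0.00558), and the others did not pass. The arrays are therefore called globin-labelled. Th and Ddc, enzymes of dopamine synthesis, averaged 11.08 and 9.85 in globin-labelled arrays against 11.78 and 10.07 in empty vector arrays. The other 8 dopaminergic markers were dimmer and did not pass on their brightest probe sets, though another probe set of Nr4a2 fell. The transporter Slc6a3 averaged 6.36 in globin-labelled arrays and 6.33 in empty vector arrays, and En1 (3.89 and 3.91) and Aldh1a1 (4.44 and 4.32) lay below the 10th percentile of the arrays (5.36 to 5.44). The astrocyte markers lay between 5.30 and 7.71 and did not pass, with 0 of 7 changed in limma (1 of 7 at an unadjusted p under 0.05). In each list of oligodendrocyte, microglial, erythroid and fibroblast markers at most 1 gene rose and at most 1 fell. Some of these moves were large: Cd68 fell by 1.25, Mbp fell by 0.70 and Pdgfrb rose by 0.96. Beyond the brightest probe sets, 4 of the 7 others of Mbp fell and 1 rose, and another of Pdgfra rose. Tyrobp and Slc4a1 rose by 0.19 and 0.29. Of 10 general neuron markers 3 rose and 3 fell (30% each), against 20.6% and 20.1% of all genes. Stmn2 averaged 10.18 in globin-labelled arrays and 11.38 in empty vector arrays, Tubb3 and Map2 fell by 0.80 and 0.48, and Ina, Snap25 and Elavl4 rose by 0.51, 0.40 and 0.18. Of 3 control transcripts with probe sets at either end, that of pyruvate carboxylase differed in its 3' minus 5' value, at 0.01 ± 0.06 (SD, n = 4) in globin-labelled arrays and -0.32 ± 0.08 (SD, n = 3) in empty vector arrays. The part of these marker and end differences in the results below was not tested. In extracts of whole cultures, fewer cells of a type and less RNA per cell cannot be told apart. Precision is limited by the small number of arrays.

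Most of the listed genes of the ATF4 program and the serine pathway were higher in the globin-labelled arrays, mostly by small amounts. The listed tRNA synthetases were divided. So were 22 further ATF4 targets and partners, described below, of which 8 rose and 6 fell (36.4% and 27.3%). Of the 31 genes 19 rose, or 61.3%, against 20.6% of all genes (40.7% passed in either direction). In the other direction 1 of the 31 fell (3.23%), against 20.1% of all genes. The median difference was 0.18, against 0.02 over all genes, and the range was -0.17 to 1.85. A fold of 1.5 or more was reached by 2 of the 31, Cth and Cbs, where 5.28% of all genes were called with such a fold. All 4 globin-labelled arrays lay above all 3 empty vector arrays for 20 of the 31, against 23.1% of all genes, and below them for 2, against 22.6%. Of the 20 genes other than synthetases 14 rose and 0 fell in limma, with 2 lower at an unadjusted p under 0.05. Among the 11 synthetases 5 rose and 1 fell.

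**Figure D1:**
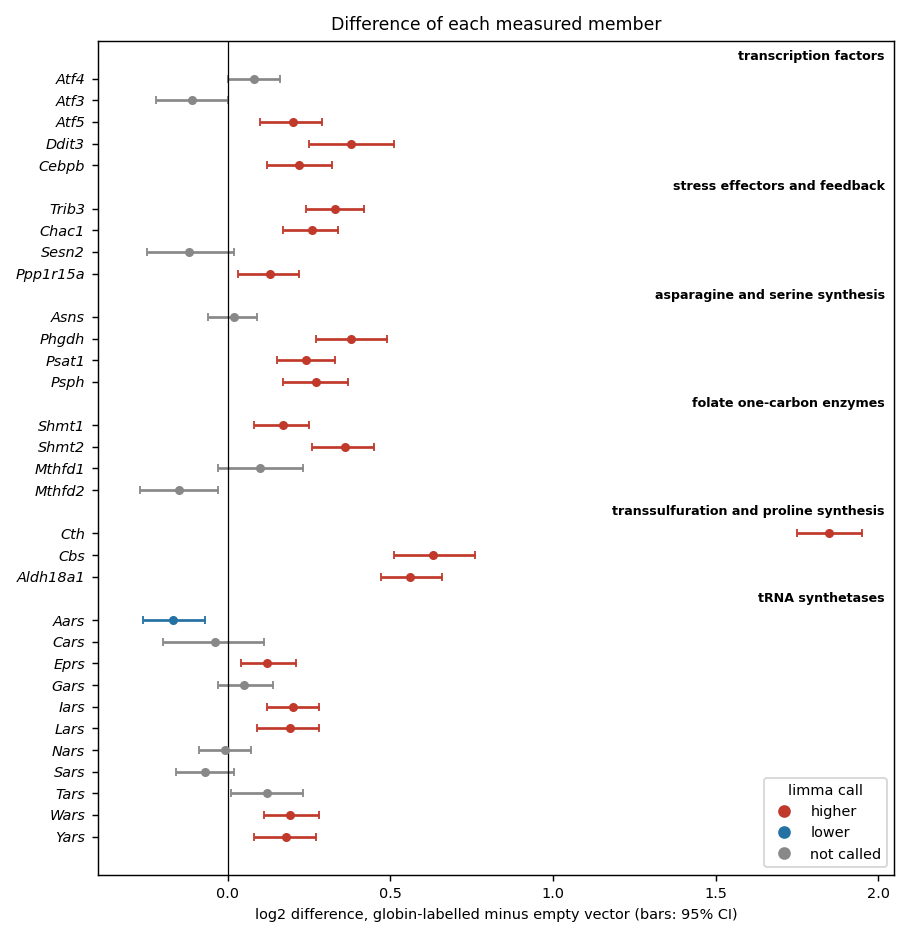
Log2 difference of the 31 genes, globin-labelled minus empty vector, with limma's 95% confidence interval as bars and grouped by role. Cth stands at 1.85, every other gene lies between -0.17 and 0.63, and 19 of 31 are called higher.

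Among the transcription factors, the message of Ddit3, which encodes the stress factor CHOP, rose most, while that of Atf4 itself did not pass. Ddit3 read 13.30, 13.28, 13.23 and 13.24 in the globin-labelled arrays, against 12.77, 12.88 and 13.00 in the empty vector arrays. The groups did not overlap, the empty vector arrays were the more spread, and the difference was 0.38 ± 0.06 (1.3-fold, limma adjusted p = 6.01e-04). Cebpb, a C/EBP factor that is both a target and a partner of ATF4, read 13.23, 13.19, 13.19 and 13.10 in the globin-labelled arrays, against 12.92, 12.96 and 12.99 in the empty vector arrays. It rose by 0.22 ± 0.04 (limma adjusted p = 0.00337) with the groups apart. Atf5, an ATF4-related factor that is also translated under stress, read 13.15, 13.02, 13.06 and 13.10 in the globin-labelled arrays, against 12.87, 12.89 and 12.90 in the empty vector arrays. Its rise was 0.20 ± 0.04 (limma adjusted p = 0.00482), again without overlap.

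The brightest Atf4 probe set read 13.96, 13.94, 13.95 and 13.95 in globin-labelled arrays, against 13.84, 13.88 and 13.89 in empty vector arrays. These groups lay narrowly apart, and the difference of 0.08 ± 0.04 (95% confidence interval -0.00 to 0.16) did not pass (limma adjusted p = 0.118). It did pass with the trend and robust settings of eBayes (limma adjusted p = 0.0166). The other Atf4 probe sets differed by 0.03 ± 0.04 and 0.02 ± 0.04 and did not pass. Atf3, a stress-induced factor that represses or activates targets of ATF4, read 10.89, 10.82, 10.84 and 10.77 in globin-labelled arrays, against 11.02, 10.87 and 10.94 in empty vector arrays. Here the groups overlapped, and the difference of -0.11 ± 0.05 did not pass (limma adjusted p = 0.102).

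Of the effectors and brakes of the response, 3 of 4 rose and 0 fell in limma, with 0 lower at an unadjusted p under 0.05. The shares over all genes were 20.6% higher and 20.1% lower. Trib3, a pseudokinase that restrains ATF4, read 13.38, 13.31, 13.30 and 13.30 in globin-labelled arrays, against 12.96, 12.99 and 13.03 in empty vector arrays. Its rise of 0.33 ± 0.04 (limma adjusted p = 2.10e-04) was matched on its other probe set, at 0.34 ± 0.04. Chac1, which breaks down glutathione, read 12.07, 12.05, 12.06 and 11.998 in globin-labelled arrays, against 11.80, 11.76 and 11.81 in empty vector arrays. All 4 globin-labelled arrays were above, and the rise was 0.26 ± 0.04 (limma adjusted p = 6.93e-04). Ppp1r15a, the GADD34 subunit that brings a phosphatase to eIF2, rose by 0.13 ± 0.04 (limma adjusted p = 0.0364), but did not pass when either empty vector array 1 (limma adjusted p = 0.107) or array 2 (0.0859) was left out, nor without any 1 of globin-labelled arrays 1, 2 and 3 (0.0832, 0.0797 and 0.0595). Sesn2, a leucine sensor that restrains mTORC1, did not pass, and its probe sets pointed apart, at -0.12 ± 0.06 and 0.12 ± 0.04. The matches shown above for Trib3 and Chac1 stand beside rises, and no match was found in the windows of Ddit3, Cebpb, Atf5 and Ppp1r15a. An element more than 250 bases upstream of these genes would lie outside the search.

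**Figure D2:**
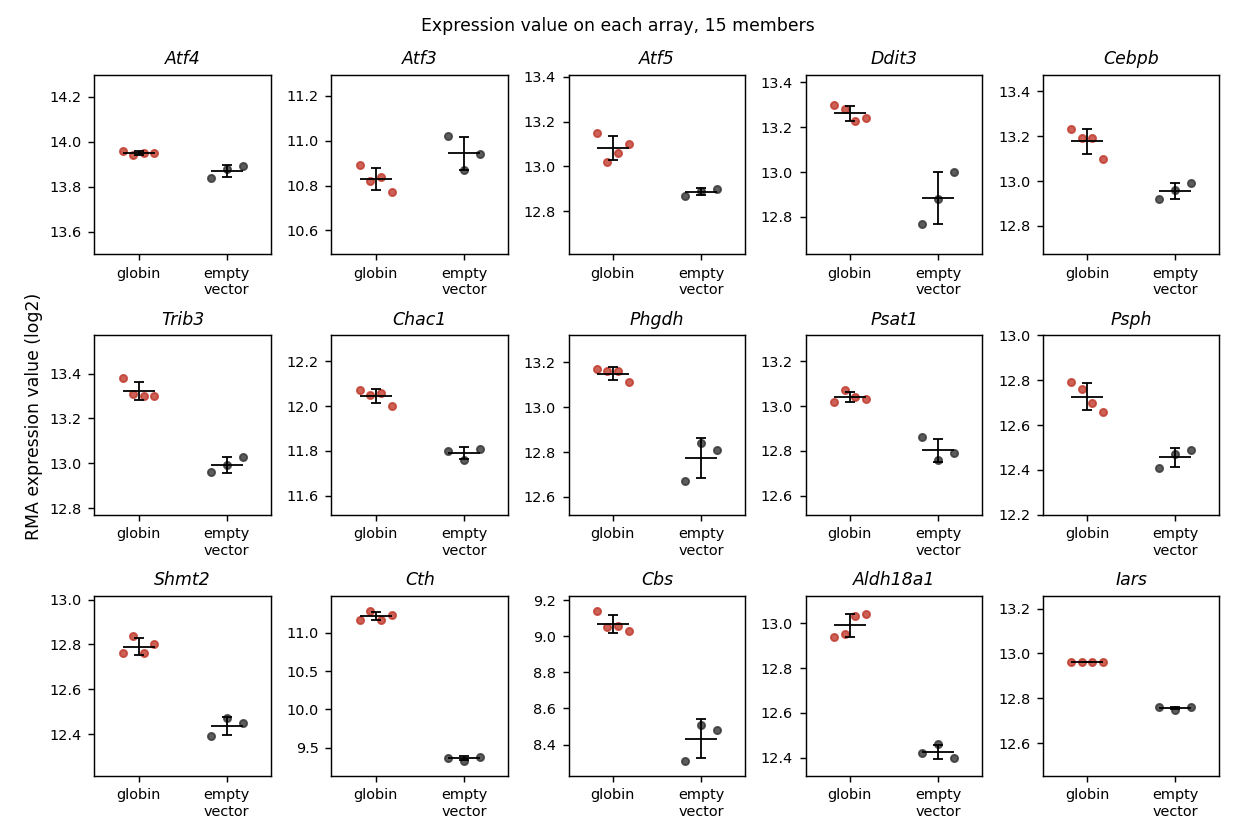
RMA expression value (log2) on each array for the 5 transcription factors and the 12 genes with the largest difference, 15 genes in all, with the 4 globin-labelled arrays left and the 3 empty vector arrays right in each panel (bars, mean ± SD; each panel has its own scale). The groups are apart in every panel except that of Atf3.

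The enzymes of serine synthesis rose together, whereas asparagine synthetase, the best-known ATF4 target, did not pass. Phgdh, which takes the first step from glycolysis to serine, read 13.17, 13.16, 13.16 and 13.11 in globin-labelled arrays, against 12.67, 12.84 and 12.81 in empty vector arrays. Its rise was 0.38 ± 0.05 (1.3-fold, limma adjusted p = 2.79e-04), with the groups apart and the lowest value in empty vector array 1. The other 3 probe sets of Phgdh alone rose too, as did both that are also annotated to a predicted gene. Psat1, the aminotransferase of the next step, read 13.02, 13.07, 13.04 and 13.03 in globin-labelled arrays, against 12.86, 12.76 and 12.79 in empty vector arrays. It rose by 0.24 ± 0.04 (limma adjusted p = 0.00122), and its other probe set by 0.21 ± 0.05.

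Psph, the phosphatase that releases serine, read 12.79, 12.76, 12.70 and 12.66 in globin-labelled arrays, against 12.41, 12.47 and 12.49 in empty vector arrays. Every globin-labelled array was above, by 0.27 ± 0.05 on average (limma adjusted p = 0.00119). Asns, which makes asparagine, read 13.85, 13.86, 13.85 and 13.85 in globin-labelled arrays, against 13.85, 13.82 and 13.84 in empty vector arrays. The groups overlapped, and the difference was 0.02 ± 0.04 with a 95% confidence interval from -0.06 to 0.09. Its other probe set differed by -0.02 ± 0.04. Asns and Atf4 were among the brightest of the 31 genes, whose mean levels ran from 8.80 to 13.92. Whether differences shrink in signals this bright was not tested.

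The folate enzymes that take the carbon of serine were divided. Shmt2, the mitochondrial enzyme that splits serine into glycine and a one-carbon unit, read 12.76, 12.84, 12.76 and 12.80 in globin-labelled arrays, against 12.39, 12.47 and 12.45 in empty vector arrays. It rose by 0.36 ± 0.04 (limma adjusted p = 1.53e-04), and the other 3 probe sets rose by 0.28 to 0.30. Shmt1, its cytosolic counterpart, rose by 0.17 ± 0.04 on its brightest probe set (limma adjusted p = 0.00807). Of its other 3 probe sets 1 rose, and the mean of all 4 did not pass (0.05, limma adjusted p = 0.329). Mthfd2, the mitochondrial dehydrogenase that oxidises the one-carbon unit, had probe sets at -0.15 ± 0.05 and 0.02 ± 0.04, neither of which passed (limma adjusted p = 0.0554 and 0.8). The first passed as lower when empty vector array 1 or globin-labelled array 1 was left out (-0.18 in both, limma adjusted p = 0.0478 and 0.0291). With all arrays it also passed as lower under trend and robust eBayes (limma adjusted p = 0.0233) and with dim probe sets left out (0.0398). Mthfd1, the cytosolic enzyme, differed by 0.10 ± 0.06 on its brightest probe set and did not pass, though another of its probe sets rose by 0.11 ± 0.04.

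The largest differences lay in transsulfuration, which makes cysteine from homocysteine, and in proline synthesis. Cth, the last enzyme of transsulfuration, read 11.17, 11.28, 11.17 and 11.23 in globin-labelled arrays, against 9.37, 9.33 and 9.38 in empty vector arrays. These groups lay far apart, with a rise of 1.85 ± 0.04 (3.6-fold, limma adjusted p = 9.67e-09) on the only probe set of the gene. Cbs, the enzyme before it, read 9.14, 9.05, 9.06 and 9.03 in globin-labelled arrays, against 8.31, 8.51 and 8.48 in empty vector arrays. It rose by 0.63 ± 0.06 (1.55-fold, limma adjusted p = 2.91e-05), and by 0.52 ± 0.06 on its other probe set. Aldh18a1, which takes glutamate to the precursor of proline, read 12.94, 12.95, 13.03 and 13.04 in globin-labelled arrays, against 12.42, 12.46 and 12.40 in empty vector arrays. Its rise was 0.56 ± 0.04 (1.48-fold, limma adjusted p = 1.12e-05), and all 4 other probe sets rose, by 0.47 to 0.58. The windows of Cbs and Aldh18a1 held no match to the core, and that of Cth was not among the windows used.

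The genes beside Cth on chromosome 3 were also higher. Among the 16 measured genes nearest to it in the order of the GRCm38.p6 gene table, 10 on one side and the 6 that remain on the other, 11 rose and 0 fell in limma, with 0 lower at an unadjusted p under 0.05. Their median difference was 0.51, above that around 99.9% of all genes, and their range -0.10 to 3.07. Cth ranked as number 2 of these 17 genes, behind Wls, a carrier of Wnt proteins, at 3.07 ± 0.10. Cryz, a quinone reductase, rose by 1.42 ± 0.06 and Acadm, an enzyme of fatty acid oxidation, by 0.73 ± 0.04. What a change shared by this stretch contributes to the Cth value was not tested. The neighbours of the other 30 genes had medians between the 5th and the 95th percentile (-0.13 and 0.15), at 0.04 around Cbs and 0.03 around Aldh18a1. Ddit3 and Shmt2 lie close together on chromosome 10, and of the 4 measured genes between them 0 passed in limma (0 at an unadjusted p under 0.05, median 0.09).

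**Figure D3:**
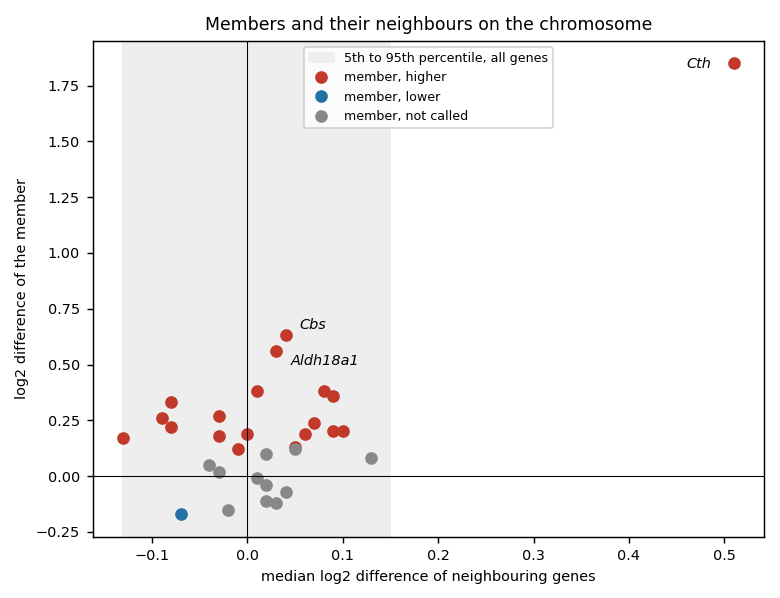
Log2 difference of each of the 31 genes (vertical axis) against the median log2 difference of up to 10 measured genes on either side of it on its chromosome (horizontal axis), both globin-labelled minus empty vector. Cth stands at 1.85 and 0.51, outside the grey band from -0.13 to 0.15 that holds the other 30.

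The aminoacyl-tRNA synthetases, which load amino acids onto their tRNAs, differed by 0.20 at most in either direction. Iars, for isoleucine, read 12.96 in all 4 globin-labelled arrays, against 12.76, 12.75 and 12.76 in the empty vector arrays. It rose by 0.20 ± 0.03 (limma adjusted p = 0.00139), with the least spread of any of the 31 genes in the globin-labelled arrays, and by 0.26 ± 0.04 on its other probe set. Wars, Lars and Yars, for tryptophan, leucine and tyrosine, rose by 0.19 ± 0.04, 0.19 ± 0.04 and 0.18 ± 0.04 (limma adjusted p = 0.00318, 0.00674 and 0.0104). Eprs, which serves both glutamate and proline, rose by 0.12 ± 0.04 (limma adjusted p = 0.0294). That call was lost without empty vector array 1 (limma adjusted p = 0.0826), without array 3 (0.0729) and without any 1 of globin-labelled arrays 1, 2 and 3 (0.0564, 0.0549 and 0.0691).

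Aars, for alanine, fell by 0.17 ± 0.04 (limma adjusted p = 0.0122), at 13.36 to 13.48 in globin-labelled arrays against 13.55 to 13.59 in empty vector arrays. The dimmer of its probe sets, at -0.11 ± 0.04, did not pass. Those for glycine, asparagine, serine, threonine and cysteine, Gars, Nars, Sars, Tars and Cars, did not pass, with differences of 0.05 ± 0.04, -0.01 ± 0.04, -0.07 ± 0.04, 0.12 ± 0.05 and -0.04 ± 0.07. The interval of Nars ran from -0.09 to 0.07 and that of Cars from -0.20 to 0.11. Tars passed as higher without globin-labelled array 4 (0.15, limma adjusted p = 0.0309). Under trend and robust eBayes with all arrays, Tars passed as higher and Sars as lower (limma adjusted p = 0.0434 and 0.0466). Of the 5 synthetases with the core of the element in their window 2 rose (Iars and Yars), 1 fell and 2 did not pass (Gars and Tars). Over the 28 listed genes with a window, 4 of the 10 with a match rose and 1 fell, with 1 not measured. Of the 18 without a match 12 rose and 0 fell in limma (1 lower at an unadjusted p under 0.05), again with 1 not measured. Among all measured genes 20.6% rose and 20.1% fell.

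More than 1 probe set was present for 20 of the 31 genes, and these showed how far a call rests on 1 probe set. Of the 11 risen genes with further probe sets, every further one rose in 8. The exceptions were Shmt1, Wars, where 2 of 3 rose, and Eprs, where neither other probe set passed. In 0 of the 31 genes did probe sets pass in opposite directions by limma. The chosen probe sets of 7 genes carry the ending x_at or s_at, by which the manufacturer marks sets that can match transcripts of several genes. They are those of Phgdh, Shmt2, Cbs, Aldh18a1, Eprs, Iars and Wars.

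**Figure D4:**
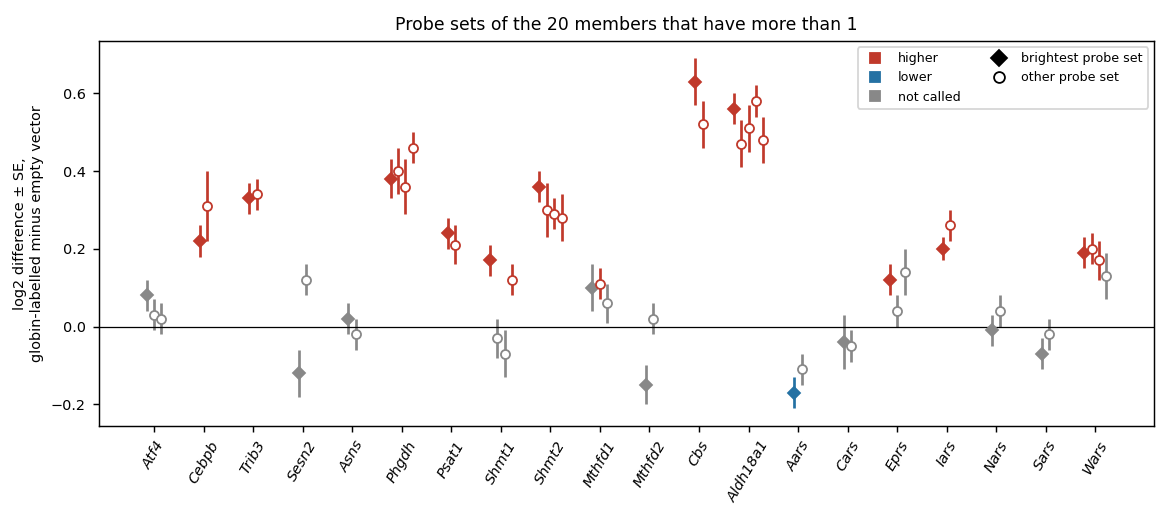
Log2 difference ± limma's standard error of every probe set annotated to 1 gene alone, for the 20 genes with more than 1, globin-labelled minus empty vector. All 5 probe sets of Aldh18a1 lie between 0.47 and 0.58, whereas those of Sesn2 lie at -0.12 and 0.12.

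The arrays of a group did not vary evenly across these genes. Empty vector array 1 was the lowest of its group for 21 of the 31 genes and for 13 of the 19 that rose, where its median deviation from the group mean was -0.04. Globin-labelled array 4 was the lowest of its group for 14 of the 31. Without empty vector array 1, 17 genes rose and 2 fell, and without both arrays 15 rose and 1 fell. Ddit3, Cebpb, Trib3, Chac1, Phgdh, Psat1, Psph, Shmt2, Cth, Cbs, Aldh18a1, Iars and Wars kept their call in every one of the 14 alternative settings, 13 of the 20 called genes.

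Other genes around the ATF4 pathway were read from 8 lists and did not move as one. Of 104 measured genes on them 32 rose and 21 fell, which is 30.8% and 20.2%, against 20.6% and 20.1% of all genes, with a median of 0.04. Upstream of ATF4, of 11 genes of the eIF2 kinases, eIF2 and eIF2B 4 fell and 0 rose in limma, with 0 higher at an unadjusted p under 0.05 (median -0.05). The falls made 36.4% of that list, against 20.1% of all genes. Eif2ak1, the heme-regulated kinase HRI, averaged 10.74 in globin-labelled arrays and 11.09 in empty vector arrays, and fell by 0.35 ± 0.04 (limma adjusted p = 1.20e-04), as did both other probe sets. Eif2ak3, the endoplasmic reticulum kinase PERK, fell by 0.27 ± 0.04 (limma adjusted p = 4.96e-04), while neither of its other probe sets passed and the mean of all was -0.14. Eif2ak2, the kinase PKR that senses double-stranded RNA, fell by 0.28 ± 0.05 (limma adjusted p = 0.00139), and Eif2ak4, the amino acid sensor GCN2, did not pass (-0.05). Eif2s2, a subunit of eIF2, fell by 0.12 ± 0.04 on its brightest probe set (limma adjusted p = 0.0373). Of its 5 other probe sets 1 rose and 0 fell in limma.

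Further ATF4 targets and partners were mixed: 8 of 22 rose and 6 fell (36.4% and 27.3%). Over all genes 20.6% rose and 20.1% fell. Cebpd, a C/EBP factor, rose by 0.66 ± 0.05 (limma adjusted p = 1.42e-05), though its other probe set did not pass and the mean of both was 0.35. Stc2, a secreted stanniocalcin, rose by 0.54 ± 0.04 (limma adjusted p = 1.56e-05), and Jun, an AP-1 subunit, fell by 0.55 ± 0.06 (limma adjusted p = 7.64e-05). Among 10 amino acid transporters linked to ATF4 5 rose and 3 fell (50% and 30%). Slc3a2, the heavy chain shared by several exchangers, rose by 0.26 ± 0.04 and the glycine transporter Slc6a9 by 0.31 ± 0.05, while the glutamine carrier Slc38a1 fell by 0.34 ± 0.05. Of 18 endoplasmic reticulum stress genes of the other branches 6 rose and 3 fell (33.3% and 16.7%, median 0.09). The sensor Atf6 and the chaperone-like Creld2 rose by 0.34 ± 0.04 and 0.32 ± 0.05, and the cochaperone Dnajb9 fell by 0.33 ± 0.06 (limma adjusted p = 1.67e-04 to 0.00122).

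Among 14 further enzymes of proline, glutamate, aspartate and cysteine 6 rose and 2 fell (42.9% and 14.3%). Over all genes 20.6% rose and 20.1% fell. Pycrl, a reductase of the last step of proline synthesis, averaged 10.89 in globin-labelled arrays and 10.27 in empty vector arrays, and rose by 0.62 ± 0.04 (limma adjusted p = 4.28e-06). Gpt, an alanine aminotransferase, rose by 0.43 ± 0.04 and Srr, the serine racemase, by 0.45 ± 0.06. Of 11 genes of the folate, glycine cleavage and methionine cycles 2 rose and 1 fell (18.2% and 9.09%). The one that fell was Ggh, which trims the glutamate tail of folates, at 7.28 to 7.50 in globin-labelled arrays against 8.78 to 9.02 in empty vector arrays. It fell by 1.51 ± 0.07 (limma adjusted p = 9.32e-07). Ahcy, which clears S-adenosylhomocysteine, rose by 0.14 ± 0.04, a call lost without empty vector array 2 or globin-labelled array 2 (limma adjusted p = 0.0797 and 0.0562). Tyms, the thymidylate synthase, rose by 0.21 ± 0.07, a call lost without empty vector array 1, 2 or 3 and without globin-labelled array 1, 3 or 4 (limma adjusted p = 0.0512 to 0.111). It was also lost after quantile normalization (0.18, limma adjusted p = 0.0961) and with the mean of all its probe sets (0.05, limma adjusted p = 0.392), where neither other probe set of Tyms passed.

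The remaining cytosolic synthetases and the scaffolds of their complex gave 3 of 10 higher and 1 lower (30% and 10%). Over all genes 20.6% rose and 20.1% fell. Farsb, a subunit for phenylalanine, and the scaffold Aimp1 rose by 0.36 ± 0.06 and 0.28 ± 0.04, and Hars, for histidine, fell by 0.30 ± 0.04 (limma adjusted p = 5.38e-04 to 9.62e-04). Mitochondrial synthetases gave 2 of 8 higher and 1 lower, with rises of 0.31 ± 0.05 for Ears2 and 0.24 ± 0.04 for Iars2 and a fall of 0.23 ± 0.04 for Hars2. The other 2 probe sets of Ears2 did not pass, and 2 of the other 3 of Farsb rose. As the mean of all probe sets of the gene, the differences were 0.22 for Farsb, 0.11 for Ears2 and -0.36 for Hars2. The medians of these 2 lists were 0.04 and 0.03, against 0.12 for the 11 synthetases of the main list and 0.02 over all genes.

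**Figure D5:**
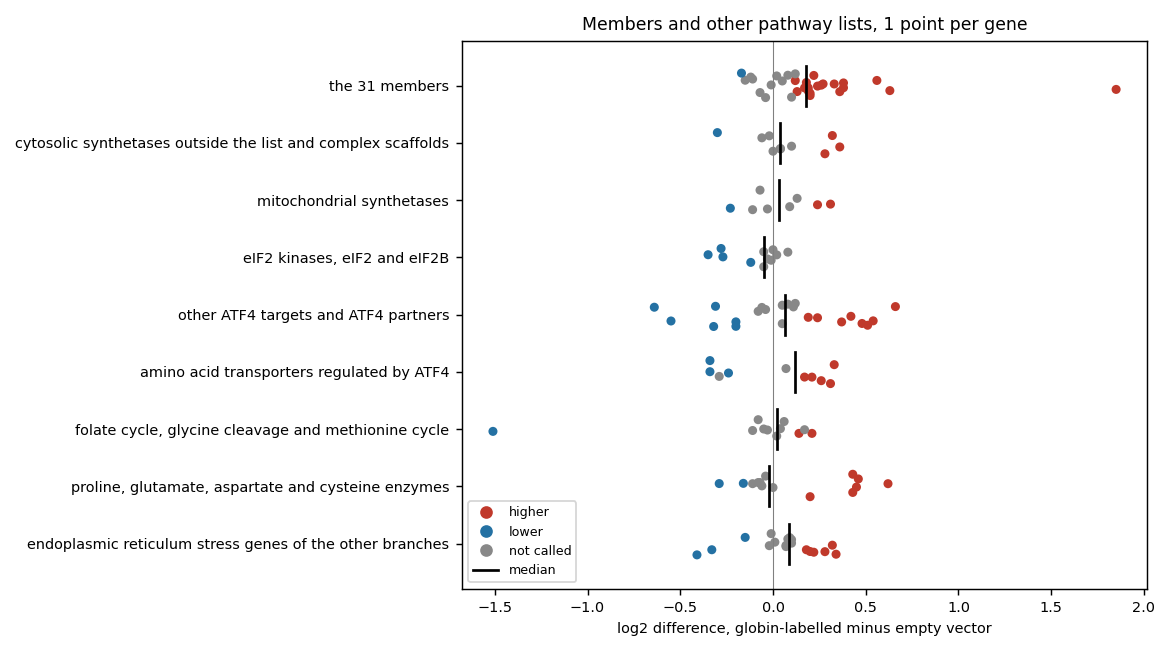
Log2 difference of each measured gene, globin-labelled minus empty vector, for the 31 genes and for 8 further lists of the pathway, coloured by limma's call, with a bar at each median (points are spread vertically at random). The median is 0.18 for the 31 genes and lies between -0.05 and 0.12 for the further lists.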

How the data were processed

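RNA of MN9D cells was labelled in one amplification cycle for 7 Affymetrix arrays (mouse 430A 2.0), per the labels' protocols. By the series' design, 8 arrays were run, and the submitters dropped 1 control for failing their quality check. The authors deposited log2 values, which per the submitters' processing notes come from RMA, with no software version stated. RMA makes the arrays' distributions alike, which hides any shift common to most transcripts. Array medians were 8.90 to 8.94. Probe sets took genes from the platform's annotation: of 22626 tested, after 64 array controls were set aside, 20380 had 1 symbol, 691 several and 1555 none. The groups were compared with limma 3.58.1 in R 4.3.3 (lmFit, then eBayes, with no term but group, two-sided, Benjamini-Hochberg over all probe sets, intervals at 95%). On simulated data of 22626 probe sets for this comparison with 50 changed per fold, 62% of changes of 1.2-fold, 94% of 1.5-fold and 100% of 2-fold were recovered, with 14 false calls. The simulation used independent normal noise and changed 200 probe sets in all, whereas 8931 were called in the data. The Benjamini-Hochberg cut therefore differs, and these rates need not hold for the data.

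The genes and lists were chosen with earlier results of these data known, so their counts are descriptions and no list was tested. Values on every array are given for the 12 genes with the largest difference and for the 5 transcription factors, and up to 3 called genes per further list are named by smallest p. Alternatives were median centring, quantile normalization, trend and robust eBayes, leaving out dim probe sets, the mean of a gene's probe sets, a replicate block, leaving out each array, and leaving out both empty vector array 1 and array 4 of the other group. Of the 10 genes whose window held the promoter core, the sequences of 2 are not reported here.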

Additional observations from a re-analysis of the deposited data

Results flagged for a closer look

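In 4 of 55 sets of 4 globin-labelled arrays examined, 1 array stood off by a rule that sets its gap against the range of the 4. Chance gives about 1 in 20 for values without ties. In Asns and Sesn2 the other 3 values were equal to 3 decimals. Any difference passes the rule there, and the chance rate does not apply. Trib3 read 13.38 in globin-labelled array 1 and 13.30 to 13.31 in the others. Sesn2 read 10.69 in globin-labelled array 4 and 10.88 in the others, and its difference did not pass in any setting. Asns read 13.86 in globin-labelled array 2 and 13.85 in the others. Phgdh read 13.11 in globin-labelled array 4 and 13.16 to 13.17 in the others, and all 4 values lay above the empty vector arrays.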

How the results depend on the processing

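Between 13 and 21 of the 31 genes rose in each of the 14 alternatives, against 19 as reported. The count of genes that fell, 1 as reported, was 3 with trend and robust eBayes and 2 with dim probe sets left out, and leaving out 1 array each gave 1 to 2. The deviations of same-numbered arrays from their group means correlated at -0.3639, -0.2991 and -0.1447, and those of other pairs at -0.2272 to 0.2796. Deviations sum to 0 within each group, which ties these values together. They cannot settle whether arrays of the same number were handled as pairs. With the replicate number as a block, 13 genes rose and 0 fell (1 lower at an unadjusted p under 0.05), and Atf5, Ppp1r15a, Shmt1, Aars, Eprs, Lars and Yars lost their call; that fit held 6 arrays. Without both empty vector array 1 and globin-labelled array 4, Ppp1r15a, Eprs, Lars and Yars also lost their call (limma adjusted p = 0.104, 0.106, 0.0508 and 0.0714). Signs turned only for genes that did not pass: Asns (-0.01 after quantile normalization, -0.00 with the mean of its probe sets), Cars (-0.11 to 0.01 with 1 array left out, 0.01 being that without empty vector array 2), Sesn2 (0.00) and Nars (0.01), both with the mean of their probe sets. The median over all probe sets or genes stayed within 0.02 of 0 in these settings.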
